A study of Mus musculus with 10 samples.

Results

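The Bcl2 family, Cflar and Dedd2 were followed in mouse embryonic fibroblasts (MEFs) given a mild preshock or left unheated. The genes were chosen by name with earlier results of these data known, so their shares beside all genes are a description only. They comprise the BH3-only genes Bid, Bcl2l11, Bbc3 and Pmaip1 and the effectors Bax and Bak1. The anti-apoptotic genes are Mcl1 and Bcl2l1, and the death effector domain genes are Cflar and Dedd2. Every probe set listed under these symbols alone was taken, which gave 28 of the 45101 probe sets of the array. They covered 9 of the 10 genes, since no probe set used here was listed under Bax. The brightest probe set of each gene stood for it in a fit of 10915 genes, which held 8 of the 10 genes. Pmaip1 was too dim for that fit and is described from its probe set.

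The study compared 2 cell lines labelled MEF(-/-), the hsp70 knockout, and MEF(+/+), the hsp70 rescue, to assess thermotolerance. Both were plated in 96 well plates, and preshocked wells were held at 43 degrees for 30 minutes after 20 hours, then returned to the incubator for 3 hours before harvest. Unheated control wells were harvested after 23 hours. There were 3 preshocked and 3 unheated arrays of the KO-labelled line, and 2 preshocked and 2 unheated arrays of the rescue-labelled line. Each sample pooled the lysates of 144 wells, and 1.5 µg of its RNA was labelled for an Affymetrix array. The labels do not say which hsp70 gene was deleted, how the rescue was made, or whether samples sharing a group came from separate cultures. The p-values therefore measure the spread between these samples, and any comparison of the lines compares 1 line with 1 other line. In a bulk sample, fewer cells of a type and less RNA per cell cannot be told apart.

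Apoptosis can start at death receptors or at mitochondria. At the receptors, proteins with death effector domains bring caspase-8 together, and c-FLIP, the product of Cflar, is built like caspase-8 but lacks its protease activity and competes with it. At mitochondria, the effectors Bax and Bak1 open the outer membrane, Mcl-1 and Bcl-xL (from Bcl2l1) hold them back, and the BH3-only proteins Bim (from Bcl2l11), Bid, Puma (from Bbc3) and Noxa (from Pmaip1) relieve or override that hold. Bid joins both routes, because caspase-8 cleaves it into its active form. Dedd2 encodes a death effector domain protein of the nucleus that binds DNA. Heat shock itself induces chaperone genes through heat shock factors, which bind repeated GAA units known as heat shock elements.

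After preshock, Dedd2 rose by 2.06 ± 0.19 on the log2 scale as the mean of both lines (SE, 10 arrays, 4.18-fold, adjusted p = 0.00119), Bcl2l11 by 1.78 ± 0.31 (3.43-fold, adjusted p = 0.0170) and Cflar by 0.97 ± 0.13 (1.96-fold, adjusted p = 0.00648). Bid fell by 1.13 ± 0.17 (2.19-fold lower, adjusted p = 0.00947). Mcl1, Bcl2l1, Bak1 and Bbc3 did not pass the test, with mean differences from -0.09 to 0.20. Thus 4 of the 8 members in the fit were called, 3 higher and 1 lower, where 4.42% of all 10915 genes were called in this comparison, 1.84% higher and 2.57% lower. Of the called genes 41.7% were higher, against 62.2% with median centring and 30.8% with the deposited scaling. These p-values are from limma with Benjamini-Hochberg adjustment over the 10915 genes, and called means that this adjusted p was under 0.05. The median difference of the 8 members was 0.19, beside -0.04 over all genes tested. With the arrays centred on their medians in place of quantile normalization, only Dedd2 of the members was called. Without any 1 of the 4 rescue-labelled arrays, Bcl2l11 was not called (adjusted p from 0.0566 to 0.0738), nor was it with no filter on dim genes (0.0674).

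The sequences before a start site are shown for Dedd2 and Bcl2l11, the 2 members with the largest differences. They are the 250 bases before a RefSeq start in the mouse build GRCm38.p6, written 5′ to 3′ along the gene. The Dedd2 stretch is chr7:25219860-25220109 on the minus strand, inside the annotated span of the gene (chromosome 7, 25199912 to 25220614). The Bcl2l11 stretch is chr2:128125788-128126037 on the plus strand and ends at the base before the gene (chromosome 2, 128126038 to 128162547). Capitals mark the only motifs of those searched that were found in them, TGACG in Dedd2 and GTAAACA in Bcl2l11.
Dedd2: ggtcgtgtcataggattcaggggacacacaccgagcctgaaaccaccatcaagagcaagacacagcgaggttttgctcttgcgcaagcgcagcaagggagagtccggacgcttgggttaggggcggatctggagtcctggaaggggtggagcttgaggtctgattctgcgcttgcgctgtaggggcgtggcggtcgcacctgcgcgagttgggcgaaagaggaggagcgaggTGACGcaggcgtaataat
Bcl2l11: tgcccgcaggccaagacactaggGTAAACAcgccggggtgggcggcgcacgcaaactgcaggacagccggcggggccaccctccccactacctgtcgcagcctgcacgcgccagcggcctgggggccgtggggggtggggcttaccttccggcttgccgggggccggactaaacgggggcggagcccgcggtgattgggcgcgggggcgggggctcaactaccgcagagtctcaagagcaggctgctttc
TGACG, the core of the cyclic AMP response element, began 18 bases before the Dedd2 start. GTAAACA, a core motif of forkhead factors, began 227 bases before the Bcl2l11 start.

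The search covered both strands of the RefSeq promoter windows, 32851 in all. Of these, 14 belonged to 9 of the 10 members, with Bax among them and Pmaip1 not. Each window held the 250 bases before a RefSeq start and a short stretch after it. Bases further away, among them those before the annotated span of Dedd2, were not searched. The heat shock element with 3 units, GAA units in alternating orientation with a spacing of 2 free bases, was in 0.603% of all windows and in none of the 14. Its 2-unit forms GAANNTTC and TTCNNGAA, which lie within the 3-unit element, were in 15.1% of all windows and also in none of the 14. In the window of Hspa1b, an inducible Hsp70 gene, the 2-unit match GAAGATTC began 104 bases before the start, while neither window of Dnajb1, a heat-induced cochaperone gene, held a 2-unit or a 3-unit match. TGACG was in 20.8% of all windows, among them windows of Mcl1 and Bbc3, and GTAAACA was in 3.65%, among them a window of Bbc3. The AP-1 motif TGANTCA (7.81% of all windows) and the full cyclic AMP response element TGACGTCA (1.79%), which holds TGACG, were in no member window. A match describes these letters only, and the motifs other than the heat shock element were chosen after the values were seen.

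**Figure D1:**
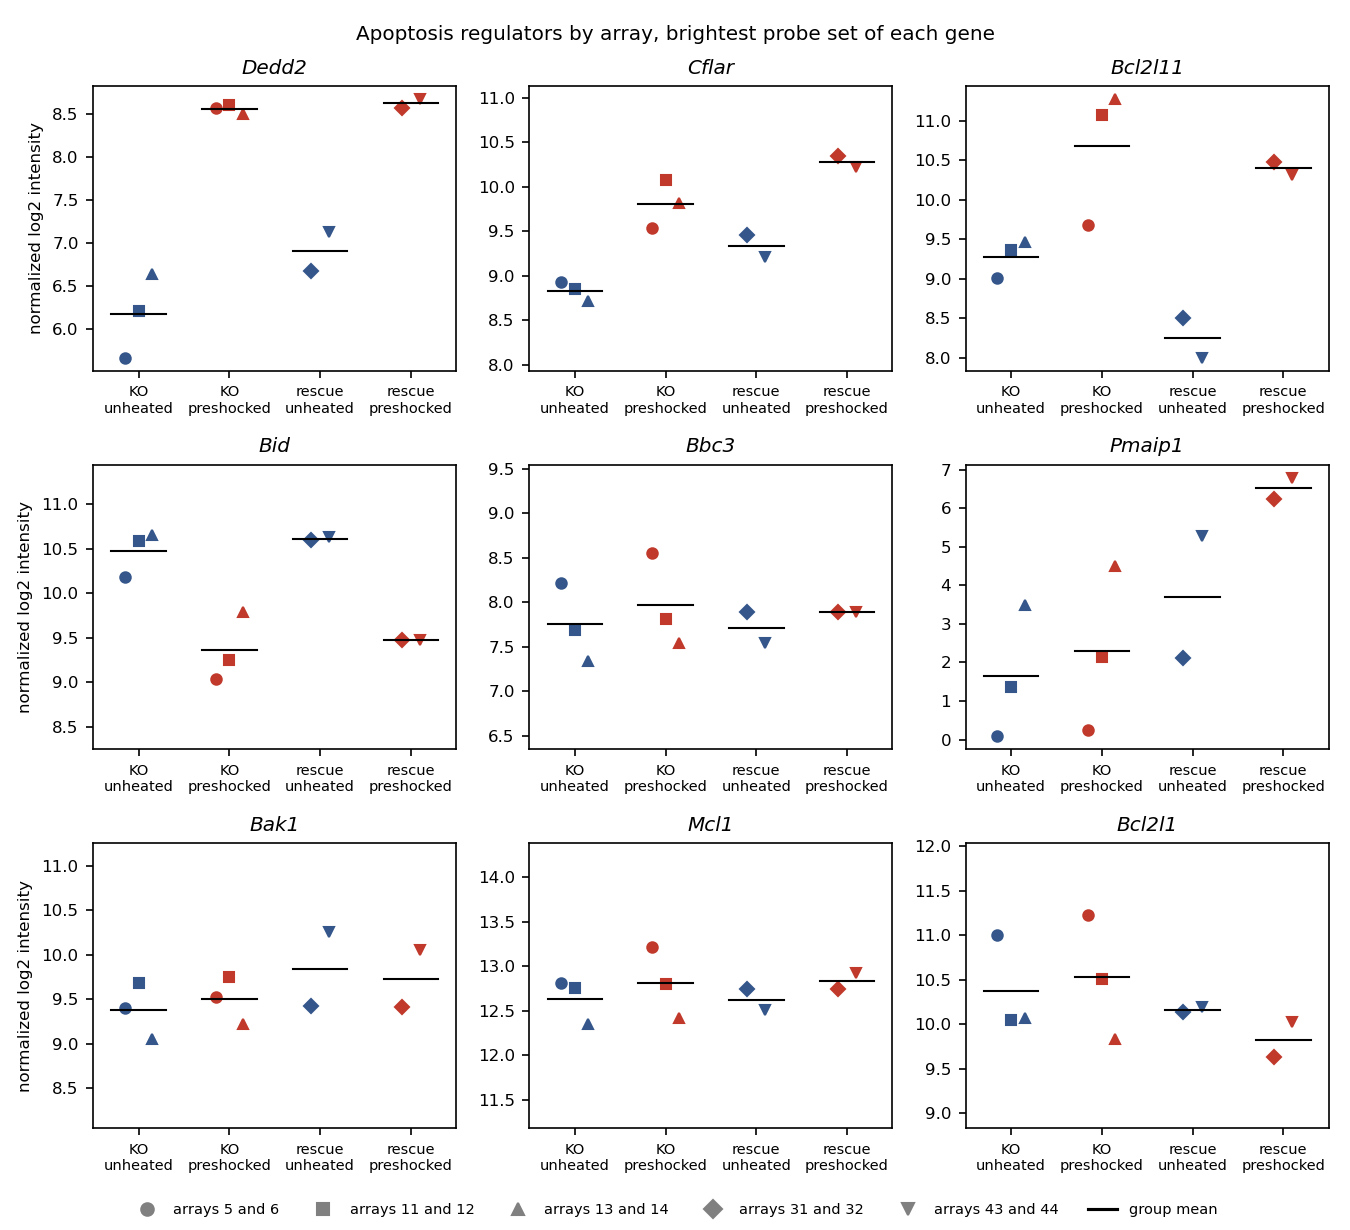
Normalized log2 intensity of 9 members by array (vertical axis) in the 4 groups (horizontal axis), for the brightest probe set of each gene; points are arrays, point shapes mark arrays with adjoining numbers, and bars are group means. Dedd2, Cflar and Bcl2l11 lie higher and Bid lies lower in all preshocked arrays than in the unheated arrays of the same line, while Mcl1, Bak1 and Bbc3 overlap.

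Among the death effector domain genes, Dedd2 was measured by 1 probe set, 1452070_at. Its deposited intensity was 86.47, 84.55 and 86.81 in the unheated KO-labelled arrays and 420.3, 377.8 and 315.8 in the preshocked ones. In the rescue-labelled line it was 87.20 and 132.8 unheated and 340.9 and 411.5 preshocked. Every preshocked array stood above every unheated array, in both lines. The unheated KO-labelled intensities lay close together, but quantile normalization set them at 5.66, 6.21 and 6.64 on the log2 scale (arrays 6, 12 and 14). On the normalized log2 scale the order of the groups was unheated KO-labelled (6.17 ± 0.49, SD, n = 3), unheated rescue-labelled (6.90 ± 0.32, n = 2), preshocked KO-labelled (8.57 ± 0.053, n = 3) and preshocked rescue-labelled (8.63 ± 0.071, n = 2). The difference between the unheated groups did not pass the test, nor did that between the preshocked groups.

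The preshock difference of Dedd2 was 2.40 ± 0.24 (log2, SE) in the KO-labelled line, 5.26-fold, with an adjusted p of 0.00413 from limma. The call held in all 20 alternative runs of the gene fit that held Dedd2, where the difference ran from 2.10 to 2.63. In the fit of all probe sets the KO-labelled difference was not called (limma adjusted p = 0.0589). The files used here carry no detection call, so whether the unheated intensities of 84.55 to 132.8 lay above background was not tested, and the folds rest on them. In the rescue-labelled line the difference was 1.73 ± 0.30, 3.32-fold, and its limma adjusted p of 0.0644 missed the threshold. This adjusted p also missed it in 15 of 20 alternative runs, where it reached 0.354, and passed in 5. That p fell to 0.0211 with the deposited scaling alone, to 0.0375 with a pseudocount of 16, to 0.0208 without KO unheated replicate 3, to 0.0461 without KO unheated replicate 1 and to 0.0295 without the pair of arrays 5 and 6. The difference between the lines' responses was -0.66 ± 0.38, with a 95% interval from -1.54 to 0.21 (limma adjusted p = 1).

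Cflar (chromosome 1, 58711311 to 58758884) was measured by 5 probe sets, of which 1424996_at was the brightest. Its deposited intensity was 544.2, 481.1 and 405.0 unheated and 772.3, 1057 and 837.7 preshocked in the KO-labelled arrays. In the rescue-labelled arrays it was 701.7 and 632.1 unheated and 1280 and 1219 preshocked. Preshocked arrays lay above unheated arrays within each line, and the rescue-labelled arrays lay above the KO-labelled arrays of the same treatment. The groups ran from unheated KO-labelled (8.83 ± 0.10, log2, SD, n = 3) through unheated rescue-labelled (9.33 ± 0.18, n = 2) and preshocked KO-labelled (9.82 ± 0.27, n = 3) to preshocked rescue-labelled (10.29 ± 0.098, n = 2). The middle groups came within 9.46 and 9.54 of each other at their nearest arrays and were not tested against each other.

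Cflar rose by 0.99 ± 0.17 (log2, SE) in the KO-labelled line (limma adjusted p = 0.0280). The rescue-labelled difference was 0.95 ± 0.20 (limma adjusted p = 0.125). The KO-labelled call was lost without any of KO unheated replicates 1, 2 and 3, KO preshocked replicates 2 and 3 and rescue preshocked replicates 1 and 2, with adjusted p-values from 0.0581 to 0.102. It was also lost with the deposited scaling (0.0516), with no filter on dim genes (0.113), with the mean of all probe sets (0.0951), with only the groups compared (0.0955) and with median centring (0.523). The responses of the lines differed by -0.03 ± 0.26, with a 95% interval from -0.63 to 0.57.

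The other Cflar probe sets did not all move alike. 1425687_at had differences of 1.03 in the KO-labelled and 1.10 in the rescue-labelled line, and 1425686_at had 0.88 and 0.61. 1449317_at had 0.30 in both lines, and 1453482_at had 0.16 and -0.33. None of the 5 was called in the fit of all 45037 probe sets, where 1424996_at had an adjusted p of 0.103 for the mean response (limma).

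Of the BH3-only genes, Bcl2l11 was covered by 5 probe sets, and all 5 were higher after preshock in each pair of arrays. For the brightest, 1456005_a_at, the deposited intensity in the KO-labelled line was 571.6, 678.7 and 694.4 unheated and 847.1, 2165 and 2512 preshocked. The rescue-labelled arrays had 355.7 and 266.3 unheated and 1408 and 1311 preshocked. The groups did not overlap within either line, and KO preshocked replicate 1 (array 5, intensity 847.1) was the lowest preshocked array. On the log2 scale the groups ran from unheated rescue-labelled (8.25 ± 0.35, SD, n = 2) through unheated KO-labelled (9.28 ± 0.24, n = 3) and preshocked rescue-labelled (10.40 ± 0.11, n = 2) to preshocked KO-labelled (10.68 ± 0.87, n = 3). Neither the difference between the unheated groups nor that between the preshocked groups passed the test.

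The Bcl2l11 difference was 1.40 ± 0.39 in the KO-labelled line (log2, SE, limma adjusted p = 0.142) and 2.16 ± 0.48 in the rescue-labelled line (adjusted p = 0.148). With the pair of adjoining array numbers as a block, the KO-labelled difference was called (adjusted p = 0.0416, where 9.15% of all genes were called). Without KO preshocked replicate 1 both were called, the KO-labelled difference at 1.90 (adjusted p = 0.0102) and the rescue-labelled one at an adjusted p of 0.0160. Without the pair of arrays 5 and 6 both were called as well (0.0205 and 0.0108). In 18 of 21 alternatives the KO-labelled difference was not called, with a limma adjusted p up to 0.632. The rescue-labelled difference was not called in 19 of 21, with an adjusted p up to 0.515. The lines' responses differed by 0.76 ± 0.61, with a 95% interval from -0.65 to 2.16.

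Of the other Bcl2l11 probe sets, 2 were called on their own. For 1435449_at the normalized log2 values were 7.42, 7.83 and 7.78 unheated and 8.89, 9.47 and 9.30 preshocked in the KO-labelled line, and 7.46 and 7.38 against 9.10 and 9.22 in the rescue-labelled line. Its mean response of 1.64 ± 0.18 (log2, SE) had an adjusted p of 0.0259 in the limma fit over all probe sets, and that of 1435448_at was 1.69 ± 0.21 (adjusted p = 0.0369). The other probe sets had differences of 1.44 and 1.88 (1456006_at) and of 1.01 and 1.63 (1426334_a_at) in the KO-labelled and rescue-labelled line. With the Dedd2 probe set (adjusted p = 0.0242) these were the 3 of 28 member probe sets called for the mean response, where 0.238% of all 45037 probe sets were called. With the pair block (0% of all probe sets called), or with median centring, 0 of the 28 were called. In each line taken alone 0 of the 28 were called, where 0.06% of all probe sets were called in the KO-labelled and 0.0244% in the rescue-labelled response. At an unadjusted p under 0.05 limma gave 10 and 11 of the 28 in those responses, where 6.63% and 5.68% of all probe sets had such a p, and 15 of the 28 in the mean (8.71% of all).

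**Figure D2:**
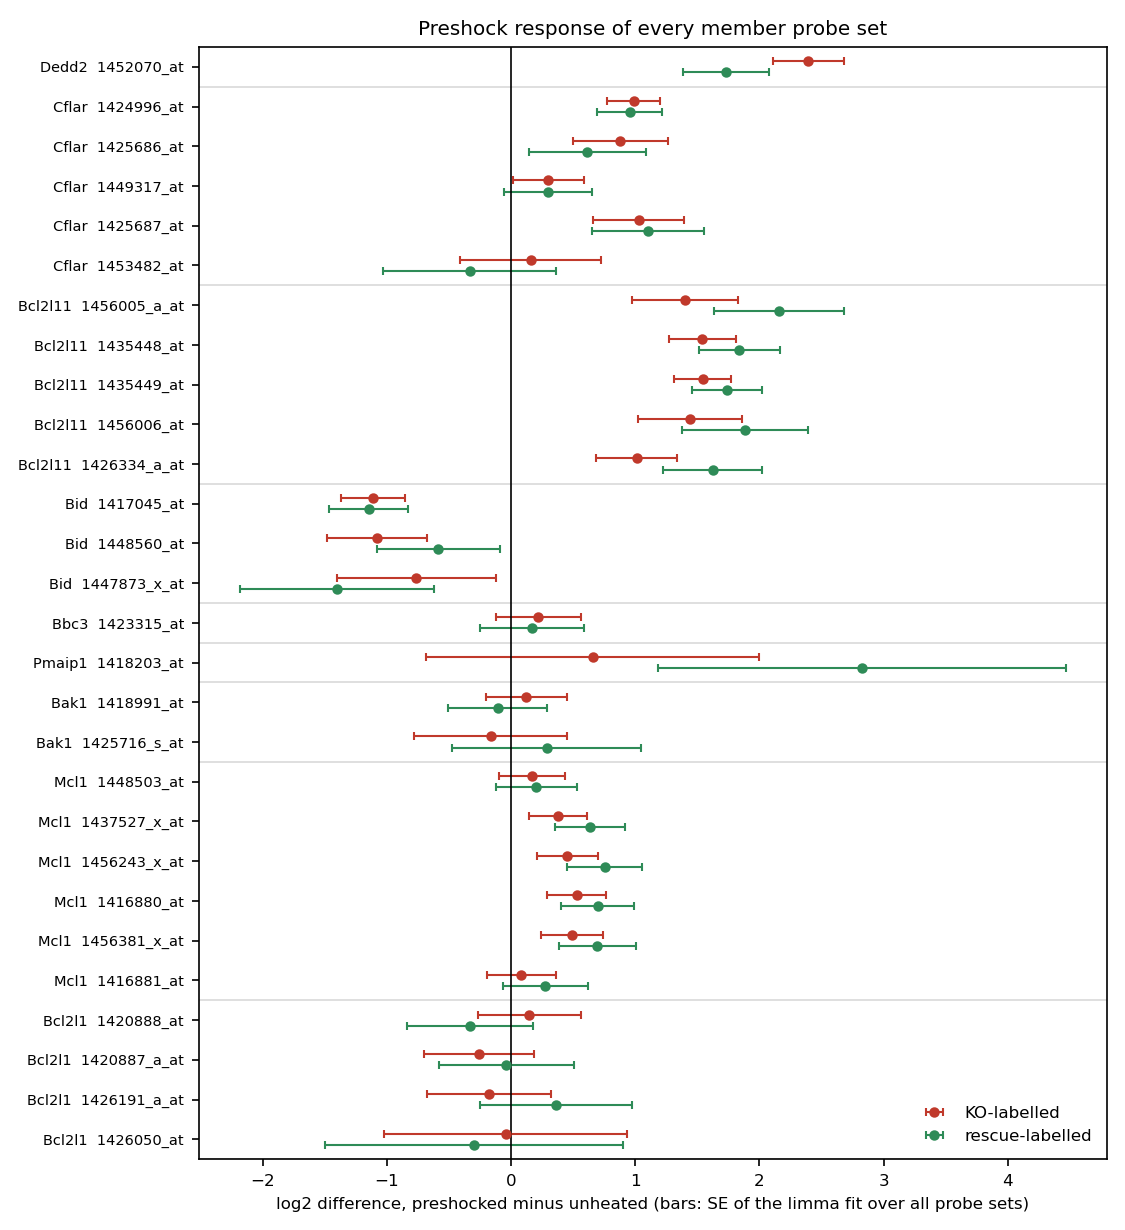
Preshocked minus unheated log2 difference (horizontal axis) of each of the 28 probe sets (rows, grouped by gene) in the KO-labelled and the rescue-labelled line, with standard errors from limma as bars. All 5 Bcl2l11 probe sets and the Dedd2 probe set lie above 0, and all 3 Bid probe sets lie below 0, in both lines; Pmaip1, whose values lie partly near the floor, has the widest error bars.

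Bid (chromosome 6, 120893119 to 120917062) moved the other way. The deposited intensity of its brightest probe set, 1417045_at, was 1180, 1555 and 1608 unheated and 557.0, 590.0 and 818.0 preshocked in the KO-labelled line. Values of the rescue-labelled line were 1588 and 1623 unheated and 661.3 and 723.4 preshocked. All 5 preshocked arrays lay below all 5 unheated arrays. The groups ran from preshocked KO-labelled (9.36 ± 0.39, log2, SD, n = 3) and preshocked rescue-labelled (9.47 ± 0.0035, n = 2) to unheated KO-labelled (10.47 ± 0.26, n = 3) and unheated rescue-labelled (10.62 ± 0.019, n = 2), and the difference between lines passed the test under neither treatment.

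Bid fell by 1.11 ± 0.21 (log2, SE) in the KO-labelled line, 2.16-fold, with a limma adjusted p of 0.0432. In the rescue-labelled line its difference was -1.15 ± 0.26 (adjusted p = 0.161), and it was called with the pair block (0.0425, where 1.5% of all genes were called). The KO-labelled call was lost without each of 9 of the 10 arrays in turn, all but KO preshocked replicate 3, with adjusted p-values from 0.0506 to 0.164. It was lost too with the mean of all probe sets (0.0545), without the pair of arrays 5 and 6 (0.0608), with no filter on dim genes (0.149), with only the groups compared (0.149) and with median centring (0.696). The responses of the lines differed by -0.03 ± 0.34, with a 95% interval from -0.81 to 0.74.

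The 2 other Bid probe sets had differences of -1.08 and -0.59 (1448560_at) and of -0.76 and -1.40 (1447873_x_at, whose suffix marks probes that can bind other transcripts) in the KO-labelled and rescue-labelled line. Each Bid probe set was lower in the preshocked array of all 5 pairs. In the fit of all probe sets none was called, and 1417045_at had an adjusted p of 0.111 for the mean response (limma).

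Bbc3, the gene of the p53-induced BH3-only protein Puma, had 1 probe set, 1423315_at, with normalized log2 values of 8.22, 7.69 and 7.34 unheated and 8.55, 7.81 and 7.54 preshocked in the KO-labelled line. The rescue-labelled line had 7.89 and 7.54 unheated and 7.89 and 7.89 preshocked. The groups overlapped, and the differences were 0.22 ± 0.30 and 0.17 ± 0.37 (SE). For the mean of both lines the 95% interval ran from -0.35 to 0.74.

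Pmaip1, the gene of Noxa, had 1 dim probe set, 1418203_at. Its deposited intensity was 1.358, 3.272 and 8.402 unheated and 1.682, 4.195 and 20.07 preshocked in the KO-labelled line, and 2.960 and 31.31 against 60.14 and 96.56 in the rescue-labelled line. Both preshocked rescue-labelled arrays were the highest of the 10. Several of the other values lie near the floor of 1 set before log2, so no fold is given, and no comparison of this probe set was called. Its mean level in 3 of the 4 groups, on the normalized log2 scale, was under 5.65, the lowest mean of a gene in the gene fit.

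The effector Bak1 (chromosome 17, 27019812 to 27028627) did not pass the test in either line. Its brighter probe set, 1418991_at, had normalized log2 values of 9.40, 9.68 and 9.05 unheated and 9.52, 9.75 and 9.22 preshocked in the KO-labelled line, and 9.42 and 10.25 against 9.41 and 10.05 in the rescue-labelled line. Its mean response was 0.01 ± 0.23 (SE), with a 95% interval from -0.51 to 0.52. Its direction was below 0 with the deposited scaling (-0.06) and with median centring (-0.02). The other probe set, 1425716_s_at, had differences of -0.17 ± 0.62 and 0.29 ± 0.76 (SE) in the KO-labelled and rescue-labelled line.

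Of the anti-apoptotic genes, Mcl1 (chromosome 3, 95656944 to 95663179) encodes a short-lived protein. Its brightest probe set, 1448503_at, had normalized log2 values of 12.81, 12.75 and 12.35 unheated and 13.21, 12.80 and 12.42 preshocked in the KO-labelled line, and 12.74 and 12.51 against 12.74 and 12.92 in the rescue-labelled line. The groups overlapped, and its mean response was 0.19 ± 0.17 (SE), with a 95% interval from -0.21 to 0.59. Another Mcl1 probe set, 1416880_at, had values of 11.66, 11.58 and 11.18 unheated and 12.09, 12.17 and 11.75 preshocked in the KO-labelled line, and 11.59 and 11.72 against 12.15 and 12.56 in the rescue-labelled line. Here the groups did not overlap in either line, and the mean response was 0.61 ± 0.19 (limma adjusted p = 0.358 over all probe sets). The KO-labelled and rescue-labelled differences were 0.38 and 0.63 for 1437527_x_at, 0.45 and 0.76 for 1456243_x_at, 0.49 and 0.70 for 1456381_x_at, and 0.08 and 0.27 for 1416881_at. The groups did not overlap in either line for 1437527_x_at, 1456243_x_at and 1456381_x_at as well, but overlapped in both for 1416881_at. Among all genes of the gene fit, 16.4% had no overlap in the KO-labelled and 38.7% in the rescue-labelled line. The 6 Mcl1 probe sets had mean responses from 0.18 to 0.61, and 0 of 6 was called. Of these 6, 3 carry the suffix that marks probes able to bind other transcripts.

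Bcl2l1, the gene of Bcl-xL (chromosome 2, 152758732 to 152833803), had 4 probe sets with no common direction. The brightest, 1420888_at, had a deposited intensity of 1981, 1079 and 1070 unheated and 2319, 1446 and 844.2 preshocked in the KO-labelled line. It was 1125 and 1215 unheated and 738.8 and 1069 preshocked in the rescue-labelled line. Arrays 5 and 6 were the highest of the 10, and the differences were 0.15 ± 0.37 and -0.33 ± 0.46 (normalized log2, SE). The 95% interval of the mean response ran from -0.77 to 0.59. In the same order of lines the differences were -0.26 and -0.04 for 1420887_a_at, -0.18 and 0.36 for 1426191_a_at, and -0.04 and -0.30 for 1426050_at.

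Counted by line, 3 of 8 members were called in the KO-labelled response (Dedd2 and Cflar higher, Bid lower), where 1.77% of all genes were called, 0.944% higher and 0.825% lower. The arrays did not overlap for 4 of 8 members in that line (16.4% of all genes). In the rescue-labelled response 0 of 8 members were called by limma (0.357% of all genes), and 4 of 8, Dedd2, Cflar, Bid and Bcl2l11, had an unadjusted p under 0.05 (8.36% of all genes). The arrays did not overlap there for 5 of 8 members (38.7% of all genes). Of the 193 genes called in the KO-labelled response, 53.4% were higher, and with median centring 28 genes were called, 89.3% of them higher. With the pair block 999 genes were called in that response, and 4 of the 8 members.

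The labels' array numbers adjoin within a line, as 5 and 6, and such pairs deviated together, so the response was also read within each of the 5 pairs. The labels do not state that such a pair shares a batch or a culture. Dedd2 differed by 2.92, 2.40 and 1.87 (log2) in the KO-labelled pairs 5 and 6, 11 and 12, and 13 and 14, and by 1.91 and 1.55 in the rescue-labelled pairs 31 and 32, and 43 and 44. In the same order of pairs Bcl2l11 differed by 0.67, 1.72, 1.80, 1.99 and 2.32. Cflar differed by 0.62, 1.24, 1.10, 0.90 and 1.01. All 5 pairs of these genes lay above 0. Bid differed by -1.14, -1.34, -0.86, -1.13 and -1.16. These values are from the brightest probe set of each gene. The other Bid probe sets ran from -1.41 to -0.15 (1448560_at) and from -1.52 to -0.44 (1447873_x_at).

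Over all members, 18 of 28 probe sets moved 1 way in all 5 pairs, which is 64.3%, where 20.1% of all probe sets did. Of these, 15 were higher (53.6%, against 9.34% of all) and 3 were lower (10.7%, as for all probe sets). The higher ones were the 5 of Bcl2l11, 5 of the 6 of Mcl1, 3 of the 5 of Cflar and those of Dedd2 and Pmaip1 (which includes a step from 1.358 to 1.682 in intensity, near the floor), and the lower ones were the 3 of Bid. Probe sets of 1 gene share their target and are not independent. No probe set of Bbc3, Bak1 or Bcl2l1 moved 1 way in all 5 pairs.

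**Figure D3:**
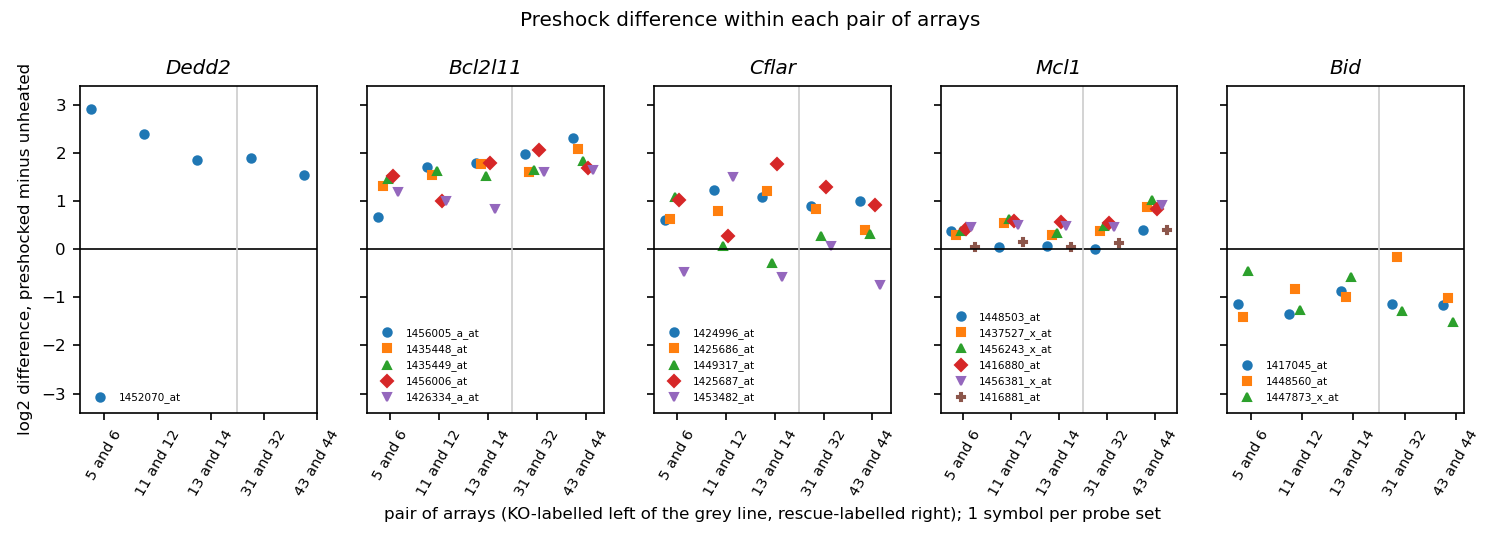
Preshocked minus unheated log2 difference within each pair of adjoining array numbers (horizontal axis, KO-labelled pairs left of the grey line and rescue-labelled pairs right) for every probe set of 5 members; each symbol is a probe set. Dedd2 lies between 1.55 and 2.92, the Bcl2l11 probe sets all lie above 0 and the Bid probe sets all lie below 0.

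Between the lines, rescue minus KO, 0 of 8 members were called in unheated cells (0.421% of all genes) and 0 of 8 in preshocked cells (0.339% of all genes). In unheated cells 3 of 8 had an unadjusted p under 0.05 by limma (12.9% of all genes), and in preshocked cells 1 of 8 did (14.1% of all genes). Dedd2 was 0.73 ± 0.27 higher in unheated rescue-labelled cells (log2, SE, adjusted p = 0.323) and 0.06 ± 0.27 higher in preshocked ones. Over 20 alternatives its unheated difference ran from 0.32 to 0.96 and was never called. Cflar was 0.50 ± 0.19 higher in unheated (adjusted p = 0.323) and 0.47 ± 0.19 higher in preshocked rescue-labelled cells (adjusted p = 0.318). Bcl2l11 differed by -1.03 ± 0.43 in unheated cells (adjusted p = 0.368) and by -0.28 ± 0.43 in preshocked cells. Bid differed by 0.14 ± 0.24 and 0.11 ± 0.24.

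The line comparisons moved with the scaling. Median centring shifted the median difference of all genes by 0.52 in unheated and by 0.43 in preshocked cells, and none of the 4 genes was called under it. Under it the Cflar difference of unheated cells was 1.03 and the Bcl2l11 difference of preshocked cells was 0.18. For the difference of the responses, rescue minus KO, 0 of 8 members were called by limma (0% of all genes), and 0 of 8 had an unadjusted p under 0.05 (0.944% of all genes). The 2 line comparisons share arrays with the 2 responses and are not independent of them.

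The wider apoptosis list held 77 other genes, of which 66 had a probe set of their own and 52 were tested. In the mean response Mdm2, the ubiquitin ligase that holds down p53, rose by 0.93 ± 0.16 (log2, SE, limma adjusted p = 0.0168), and Bcl2, the founding anti-apoptotic gene of the family, fell by 0.58 ± 0.13 (adjusted p = 0.0479). These were the 2 of 52 called, 1 higher and 1 lower, a share near the 4.42% of all genes called, and the median of the list was -0.06, beside -0.04 over all genes. In the KO-labelled response 1 of 52 was called, Mdm2 at 1.14 ± 0.20 (adjusted p = 0.0330), where 1.77% of all genes were called, and in the rescue-labelled response 0 of 52 were called by limma, with 7 at an unadjusted p under 0.05 (8.36% of all genes). With the pair block 5 were called in the KO-labelled line (2 higher, 3 lower), where 9.15% of all genes were called. For the mean it gave 9 (3 higher, 6 lower), where 17.4% of all genes were called. Both were shares near those of all genes. With no filter on dim genes the counts were 0 in both.

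By role, 1 of 10 other Bcl2 family genes was called in the mean response, which was Bcl2. Casp8 and Fadd stand in 2 of the lists that follow. None of 8 death receptors, ligands and adaptors, 11 caspases and apoptosome genes, 7 inhibitor of apoptosis genes and antagonists, and 6 death effector domain genes was called, where limma gave 2, 2, 2 and 1 of them an unadjusted p under 0.05 (17.3% of all genes). Among the 12 regulators of the members' turnover and transcription, Mdm2 alone was called. With the pair block 9 of the 52 were called in the mean response, a share near the 17.4% of all genes called. They were Mdm2, Trib3 and Fbxw7 higher, and Bcl2, Birc2, Dffa (a caspase substrate gene), Atf4, Foxo3 and Itch lower. Values without a call in the fit without the block include Birc2, an inhibitor of apoptosis gene, at -0.60 ± 0.14 (adjusted p = 0.0544), and Atf4, a stress transcription factor, at -0.49 ± 0.12 (adjusted p = 0.0561). Casp8, the caspase that c-FLIP competes with, differed by -0.06 ± 0.098, and its adaptor Fadd by -0.09 ± 0.16. Between the lines 0 of 52 were called in unheated or preshocked cells, with 5 and 11 at an unadjusted p under 0.05 by limma, where 12.9% and 14.1% of all genes had such a p.

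**Figure D4:**
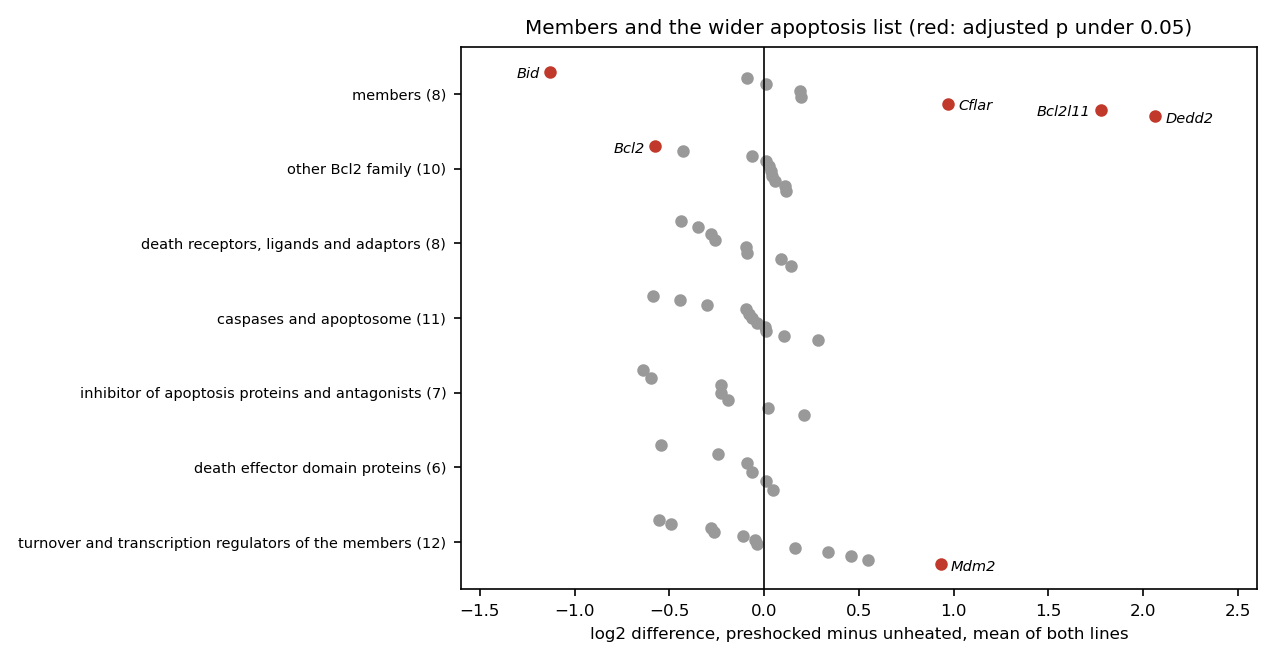
Mean preshocked minus unheated log2 difference of both lines (horizontal axis) for the 8 members in the gene fit and for the genes of the wider list by role (rows, number tested in brackets); each point is a gene and red marks an adjusted p under 0.05. The members hold 4 red points, and the 6 other rows hold Bcl2 below 0 and Mdm2 above 0.

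The 3 genes whose log2 values ran closest to each called member over the 10 arrays were taken by Pearson's r, as a description. For Dedd2 they were Hspb1, a small heat shock protein gene (r = 0.990), Dnaja4, an Hsp40 gene (0.983), and Atg12, an autophagy gene (0.982). For Bcl2l11 they were Cnksr3 (0.956), Procr (0.948) and Atp6v0e (0.945). For Cflar they were Snx30 (0.964), 1600020E01Rik (0.960) and Mier3 (0.958), and for Bid Zscan21 (0.981), Slc25a13 (0.973) and Daam1 (0.967). The 10 arrays share the preshock, the lines and the pairs, so such values come from few distinct conditions.

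The heat response and the cell type were checked on the same arrays. Dnajb1, an Hsp40 cochaperone gene induced by heat, and Hspa1b rose in the mean response by 2.76 ± 0.13 and 6.20 ± 0.30 (log2, SE, limma adjusted p = 5.1e-05 for both). Hspa1b rose in the KO-labelled line too, from 211.7 to 476.7 unheated to 19912 to 31556 preshocked in deposited intensity. Whether its probe set lies in the deleted part is not known here, so comparisons between lines follow the labels only. Of 12 fibroblast markers 11 were in the gene fit, and 0 of 11 were called by limma in either response, with 1 at an unadjusted p under 0.05 in the KO-labelled (12.8% of all genes) and 0 in the rescue-labelled line. With the pair block 1 fibroblast marker, Pdgfrb, was called lower in the KO-labelled response (-0.88, limma adjusted p = 0.0339) and in the mean response (-0.74, adjusted p = 0.0180). That fit called 9.15% of all genes in the KO-labelled response and 17.4% in the mean response. The summed intensity of the 12 was 72550 to 120200 over the KO-labelled and 100200 to 110800 over the rescue-labelled arrays. Bright genes such as Vim (group means from 33537 to 42470) weigh most in that sum. Some of the 12 were dim, with group means from 19.7 to 59.8 for Lum, 82.8 to 117 for Thy1 and 83.5 to 201 for Dcn. Summed epithelial markers ranged from 175.7 to 919.6 in the KO-labelled and from 141.2 to 206.7 in the rescue-labelled arrays. Sums of leukocyte, endothelial and muscle markers ranged from 56.45 to 476.7 over all arrays. Neural markers summed to 421.7 to 664.4 in the KO-labelled and 145.8 to 175.4 in the rescue-labelled arrays, and the part of this in the line comparisons was not tested. Array medians were 50.70 to 73.74 in 8 arrays and 107.0 and 100.4 in KO unheated replicate 3 and KO preshocked replicate 1, the pair of arrays 6 and 5.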

How the data were processed

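Per the labels, each of 10 samples was hybridised to 1 Affymetrix mouse array. The authors deposited a linear intensity for each probe set and array, on a scale that gives all arrays a common trimmed mean. The summarisation software was not given in the sources used here, and probe sets carry no detection call here. Values below 1 (4935 of them) were set to 1, log2 was taken, and arrays were quantile normalized, because their medians differed by up to 1.08. Of 45101 probe sets, 64 controls were left out, 34945 had 1 gene symbol in the platform annotation, 932 several and 9160 none. The brightest probe set stood for each of 18193 genes, and the 60% with the highest mean, 10915 genes, were tested.

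A limma model (version 3.58.1, R 4.3.3, statmod 1.5.0) with 4 group means over all 10 arrays gave each comparison, with Benjamini-Hochberg adjustment over the genes tested. The same model was run on all 45037 probe sets without a filter. Errors are standard errors of that model unless named SD. All 10 members were named, with every probe set of the 9 that had any, as was each called gene of the wider list, the 3 genes most like each called member, and Hspa1b and Dnajb1; other genes of the wider list named without a call were chosen after their values were seen. The members, lists and tests were chosen with earlier results of these data known. No protein sequences were used here, so the planned search for BH3 motifs was not run.

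The labels' array numbers adjoin within a line. Deviations from group means correlated within pairs at 0.721, 0.376, 0.552, 0.370 and 0.370, where the rescue-labelled pairs mirror each other with 2 arrays a group. The labels do not state that such a pair shares a batch or a culture. The replicate numbers used here differ within most pairs. The pair was used as a block in an alternative. Other alternatives were the scaling, the floor, a pseudocount, the filter, the mean of all probe sets, the variance model, only the groups compared, and leaving out each array or the pair of arrays 5 and 6, whose medians stand apart. The number of arrays limits the precision.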

Additional observations from a re-analysis of the deposited data

Results flagged for a closer look

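The Bak1 probe set 1418991_at differed between the lines in direction: the preshock difference was 0.12, 0.08 and 0.17 (log2) in the 3 KO-labelled pairs and -0.01 and -0.21 in the 2 rescue-labelled pairs. The response of the rescue-labelled line minus that of the KO-labelled line was -0.23 ± 0.45 (SE, limma adjusted p = 1). The pairs on either side of 0 drew attention to it, and the test of the difference did not pass. The other Bak1 probe set, 1425716_s_at, had the opposite sign of difference between the lines, 0.45 ± 0.98, with pairs of -0.38, -0.64 and 0.52 in the KO-labelled and 0.41 and 0.16 in the rescue-labelled line.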

How the results depend on the processing

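The number of members called in the KO-labelled response, 3 of 8, was 1 with median centring, with no filter on dim genes, with the mean of all probe sets and with only the groups compared, and 1 to 3 without each array in turn. In the rescue-labelled response, 0 of 8, it was 1 with the deposited scaling, 1 with a pseudocount of 16 and 1 with the pair block. That number was 2 without the pair of arrays 5 and 6, and 0 to 1 without each array. For the mean response, 4 of 8, it was 1 with median centring. Member probe sets called for the mean response, 3 of 28, were 0 with median centring and with the pair block. The wider list's counts, 1 in the KO-labelled and 2 in the mean response, were 0 in both with no filter. With the pair block they were 5 and 9, where 9.15% and 17.4% of all genes were called. In the main comparisons the pair block changed no call of a member other than Bcl2l11 in the KO-labelled and Bid in the rescue-labelled line. The cause of these shifts was not tested.

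No value that turned its sign was called. With the mean of all probe sets Bid was -0.076 between unheated and -0.14 between preshocked lines, Bcl2l11 was 0.082 between preshocked lines, Bcl2l1 and Bak1 were -0.083 and -0.021 in the KO-labelled response and Bak1 was 0.090 in the rescue-labelled one. Without the pair of arrays 5 and 6 Bid was -0.0065 between unheated and -0.051 between preshocked lines. With median centring Bcl2l11 was 0.18 between preshocked lines and Bak1 -0.016 in the mean response. With the deposited scaling Bak1 was -0.064 in the mean response and Cflar 0.011 in the difference of responses. Without each array in turn, the difference of responses ran from -0.19 to 0.18 for Bid and from -0.17 to 0.10 for Cflar. Bid ran from -0.0065 to 0.23 between unheated and from -0.051 to 0.33 between preshocked lines, where Bcl2l11 ran from -0.78 to 0.021. In the KO-labelled response Mcl1 ran from -0.026 to 0.37, Bcl2l1 from -0.20 to 0.49, Bak1 from -0.040 to 0.27 and Bbc3 from -0.074 to 0.45. Bak1 ran from -0.52 to 0.31 in the rescue-labelled response and from -0.20 to 0.22 in the mean, and Bcl2l1 from -0.27 to 0.081 in the mean.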
